A study of Mus musculus with 3 samples.

Results

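Genes of the Six-family, Eya and Dach network were described in the genital tubercle, from which the external genitalia of both sexes develop. RNA of 3 mouse embryos was measured on 1 array each. A probe set, the array's unit of measurement, was taken as a member when a platform annotation gave it exactly 1 gene symbol and that symbol was Six2, Six4, Six5, Eya1, Eya2, Eya3, Eya4, Dach1 or Dach2. The rule gave 23 probe sets of 9 genes, out of 45037 probe sets that are not controls and 18193 named genes.

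All 3 samples belong to 1 group, labelled male, strain FVB/N, embryonic day 14 and Theiler stage 22, and none was pooled. Each carries the label of an SMAA/EYFP transgene, a fluorescent reporter named for smooth muscle actin (Acta2), whose signal guided the dissection. FVB/N females had been mated to transgenic males, and no sample without the transgene, of another age or under treatment was available for comparison. Total RNA was amplified in 2 rounds before hybridisation. The labels do not say whether the embryos shared a litter, so the spread between samples mixes animals, dissection, amplification and hybridisation.

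Six-family proteins are homeodomain transcription factors that bind DNA. Eya proteins do not bind DNA themselves but are recruited by Six-family proteins as coactivators, and they carry a phosphatase domain. Dach proteins are nuclear cofactors related to Ski that in many settings repress the genes that Six-family proteins act on. The network works in kidney, muscle, ear and sensory organs, and in mice Eya1 is needed in the mesenchyme around the cloaca from which the tubercle grows.

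Receptor genes of sensory cells (olfactory, vomeronasal and taste) served as the measure of background. The 95th percentile of their 80 probe sets stood at 136, 253 and 199 signal units in replicates 1, 2 and 3. A probe set is called detected below where it exceeded this value in all 3 samples. Of 9 marker genes of the tubercle, 8 were detected, among them Hoxd13, Isl1, Shh and Trp63, while Hoxa13 passed in replicate 1 only. The sex label did not hold for replicate 3: Xist, the RNA of the inactive X chromosome, read 8.05, 118 and 61883 in replicates 1, 2 and 3, and the Y-linked gene Eif2s3y read 4384, 3738 and 37.9. Replicate 3 is therefore called the library of doubtful sex label, and means are also given without it. Markers of other tissues differed between samples as well. The summed signal of 10 skeletal muscle markers was 24252, 7118 and 3268 in replicates 1, 2 and 3, that of 6 liver markers 110988, 52096 and 9252, that of 6 smooth muscle markers 6163, 3442 and 2919, that of 6 cartilage markers 1528, 2130.2 and 1613, that of 4 nerve and glia markers 1579, 1706 and 1452, and that of 5 erythroid markers 64237, 90568 and 79305. The skeletal muscle sum was mostly Myh3, at 9136, 997 and 570 in replicates 1, 2 and 3, and Actc1, at 10655, 3639 and 1201. Pax7, Myf5 and Ckm, none of them detected, were highest in replicate 2, and the other skeletal muscle markers in replicate 1. The smooth muscle sum was mostly Acta2, at 5273, 2736 and 2378, while Myh11, the other one detected, read 230, 268 and 231. The erythroid sum was mostly Hbb-y, at 59853, 86889 and 77722 in replicates 1, 2 and 3. Of the other erythroid markers, Hba-x, Alas2 and Epb42 were lowest in replicate 3. Hba-a1, below background in every sample, was lowest in replicate 1. All 5 kidney markers measured were below background in at least 1 sample, and 4 of them in every sample.

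The network was represented by all 3 families. Of the 9 genes, 8 had their main probe set, the one with the highest mean signal, detected, against 60.5% of all named genes. The exception was Eya2. By probe set, 14 of 23 were detected, against 48.0% of all probe sets. Another 6 exceeded background in some samples and 3 in none, where the share of all probe sets that did so in none was 35.5%. Signals are in the deposited intensity units. Probe sets bind with different strength, so their order is not an order of transcript amounts.

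**Figure D1:**
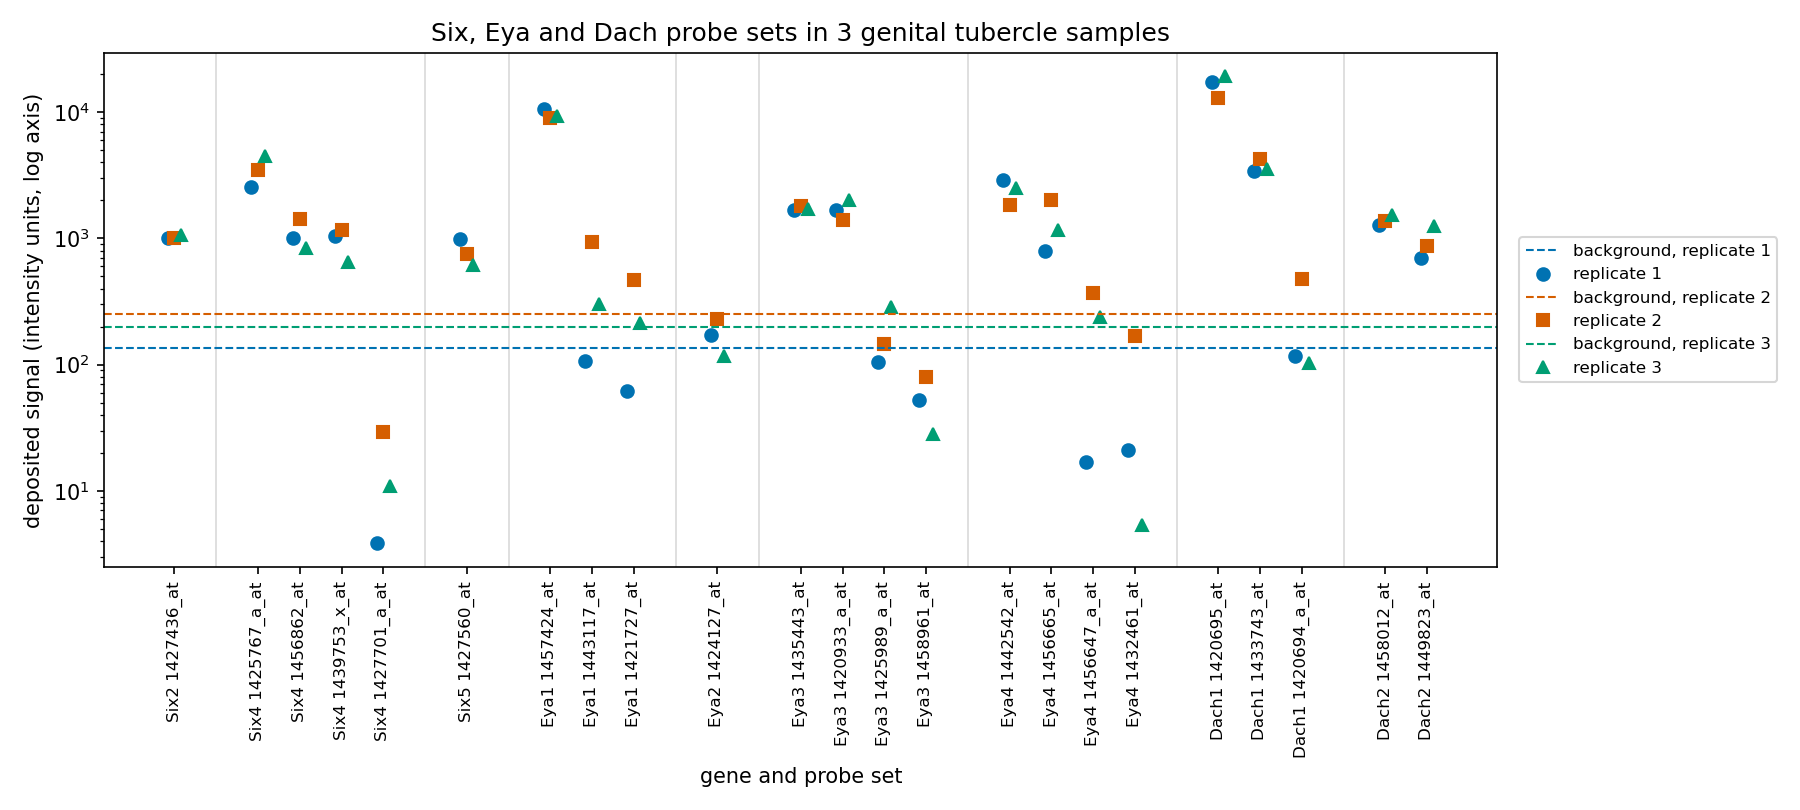
Deposited signal (intensity units, log axis) of the 23 probe sets of Six-family, Eya and Dach genes, grouped by gene on the horizontal axis, with 1 point per sample and dashed lines at each sample's background. The main probe sets of Dach1 and Eya1 lie highest, between 9006 and 19208 units, whereas 9 probe sets fall below a background line in at least 1 sample.

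The Six-family genes lie in groups on the chromosomes, so members above background can be set beside neighbours below it. In RefSeq (assembly GRCm38.p6) Six3 is the next protein-coding gene to Six2, and Six6 and Six4 share a chromosome. Six2 and Six4 were detected, whereas the 3 probe sets of Six3 and the 1 of Six6 did not exceed background in any sample. Six3 and Six6 are factors of forebrain and eye. The main Six3 probe set read 100.2, 79.5 and 175 in replicates 1, 2 and 3 and the Six6 probe set 1.62, 31.0 and 7.10. The 250 bases before a start site of these 4 genes are shown, 5′ to 3′, because they set the upstream DNA of an expressed gene beside that of a neighbour below background. Capitals mark TCAGGTT, the core of the MEF3 element bound by Six-family proteins, searched on both strands. The other motif searched was TGATAC on both strands, and the motifs do not overlap.
Six2, chr17:85688255-85688504, minus strand: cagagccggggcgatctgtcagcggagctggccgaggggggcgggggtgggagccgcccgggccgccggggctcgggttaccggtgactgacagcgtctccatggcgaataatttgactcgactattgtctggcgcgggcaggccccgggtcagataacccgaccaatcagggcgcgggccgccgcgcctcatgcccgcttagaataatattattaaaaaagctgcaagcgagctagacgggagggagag
Six3, chr17:85620584-85620833, plus strand: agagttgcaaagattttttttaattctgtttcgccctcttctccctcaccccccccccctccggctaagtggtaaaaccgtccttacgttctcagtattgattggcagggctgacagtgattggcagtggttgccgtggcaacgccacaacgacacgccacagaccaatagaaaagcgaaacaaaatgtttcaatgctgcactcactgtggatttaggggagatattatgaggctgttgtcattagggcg
Six4, chr12:73113246-73113495, minus strand: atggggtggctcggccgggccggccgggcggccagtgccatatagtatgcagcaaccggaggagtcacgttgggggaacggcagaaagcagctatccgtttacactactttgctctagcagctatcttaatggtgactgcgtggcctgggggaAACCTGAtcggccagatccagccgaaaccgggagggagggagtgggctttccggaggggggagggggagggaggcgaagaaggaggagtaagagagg
Six6, chr12:72939632-72939881, plus strand: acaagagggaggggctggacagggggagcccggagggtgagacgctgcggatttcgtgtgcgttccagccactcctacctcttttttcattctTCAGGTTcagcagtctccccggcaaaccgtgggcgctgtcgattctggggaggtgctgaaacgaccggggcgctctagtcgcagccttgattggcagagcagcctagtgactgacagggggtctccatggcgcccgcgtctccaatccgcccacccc

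TCAGGTT was found once in this window of Six4, as AACCTGA on the printed strand, and once in that of Six6. It was absent from the printed windows of Six2 and Six3 and from the second annotated start of Six4. TGATAC was in none of them. Over 32536 distinct promoter windows of the same length, 3.49% held TCAGGTT and 4.66% held TGATAC. A match thus occurred upstream of 1 detected gene and of 1 below background. The windows held 26 CG dinucleotides for Six2, 10 for Six3, 15 for Six4 and 17 for Six6, against a median of 6 over all windows. Of the 9 member genes 7 had a window in the RefSeq table, and TCAGGTT was in 1 of their 10 windows and TGATAC in none.

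Among the Six-family factors, Six2, which keeps nephron progenitors undifferentiated in the kidney, had an even signal. Its single probe set read 1016, 1006 and 1059 in replicates 1, 2 and 3, a mean of 1027 ± 28.0 (SD, n = 3), and 1011 without replicate 3. The SD was 0.13 on the log2 scale, and 0.36 with the samples aligned on all probe sets. Of the 5 kidney markers measured, Pax8, Wt1, Cdh16 and Cited1 were above background in no sample, and Meox1 only in replicate 1, at 299, 186 and 80.7.

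Six4, which acts in muscle and kidney, had 4 probe sets. The main one, 1425767_a_at, read 2541, 3471.5 and 4516 in replicates 1, 2 and 3, with a mean of 3509.7 ± 988 (SD, n = 3) and of 3006 without replicate 3. It was highest in replicate 3 and lowest in replicate 1. Its other probe sets did not follow this order. Probe set 1456862_at read 1001, 1429 and 840.5, and 1439753_x_at, whose suffix marks probes that may also bind other transcripts, read 1043, 1174 and 648. Both were lowest in replicate 3, where the main probe set was highest. The fourth, 1427701_a_at, was above background in no sample, at 3.84, 29.3 and 10.9.

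Six5, whose gene lies beside the myotonic dystrophy kinase gene Dmpk, read 987, 758 and 619 in replicates 1, 2 and 3 on its single probe set, a mean of 788 ± 185 (SD, n = 3) and 872 without replicate 3. It was highest in replicate 1 and lowest in replicate 3. Dmpk was detected too, with 393, 790.1 and 556. Its order differed, with the highest signal in replicate 2 and the lowest in replicate 1.

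Of the Eya coactivators, Eya1, mutated in human branchio-oto-renal syndrome, was the brightest relative to its arrays. The main probe set, 1457424_at, read 10679.5, 9006 and 9343 in replicates 1, 2 and 3, a mean of 9676 ± 885 (SD, n = 3) and 9843 without replicate 3. These values lay between the 94.2 and 94.7 percentiles of all probe sets in the 3 samples. The other Eya1 probe sets were far dimmer and spread widely. Probe set 1443117_at read 106, 930.1 and 301, and 1421727_at read 62.2, 469.8 and 212. Both were below background in replicate 1 and highest in replicate 2. Between those samples the difference was at least 5.84-fold for 1443117_at and at least 2.95-fold for 1421727_at. These bounds are set against the background of replicate 1 after alignment of the samples, a scaling that gives them equal medians over detected probe sets. The main Eya1 probe set ran the other way, at 1.39-fold higher in replicate 1 than in replicate 2.

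Eya2, active in muscle precursors and sensory ganglia, was the gene with least signal. Its single probe set read 171, 229 and 117 in replicates 1, 2 and 3 and passed background only in replicate 1, where background was lowest. Replicate 2 had the highest signal but also the highest background, so the gene was not detected with certainty at this sensitivity.

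Eya3, which is expressed in many tissues, had an even main signal. Probe set 1435443_at read 1673, 1811 and 1704 in replicates 1, 2 and 3, a mean of 1729 ± 72.5 (SD, n = 3) and 1742 without replicate 3. Its log2 SD was 0.06, but 0.30 with the samples aligned on all probe sets and 0.19 over the mean of the gene's detected probe sets. A further probe set, 1420933_a_at, read 1669, 1408 and 2002, lowest in replicate 2 and highest in replicate 3. Of the remaining Eya3 probe sets, 1425989_a_at exceeded background only in replicate 3 (105, 146 and 284) and 1458961_at in no sample (52.8, 79.2 and 28.1).

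Eya4, linked to hearing and heart muscle, had the largest SD among the main probe sets of those 8 genes after alignment, though not without it. Probe set 1442542_at read 2884, 1837 and 2518 in replicates 1, 2 and 3, a mean of 2413 ± 531 (SD, n = 3) and 2361 without replicate 3, with a log2 SD of 0.45. Without alignment the SD was 0.33, below the 0.42 of Six4, and without replicate 2 it was 0.20, below the 0.54 of Six5 and the 0.53 of Six4. The main Eya4 probe set was lowest in replicate 2. Probe set 1456665_at of the same gene read 799.7, 2019 and 1167 and was highest in replicate 2. It was 2.16-fold higher in replicate 2 than in replicate 1, while the main probe set was 1.84-fold lower there. The remaining Eya4 probe sets were dim. Probe set 1456647_a_at read 17.1, 373 and 239.6 and exceeded background in replicates 2 and 3 but not 1. Probe set 1432461_at exceeded it in none (21.2, 167 and 5.36).

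Of the Dach cofactors, Dach1, a repressor found in limb and other mesenchyme, had the highest position in its arrays of any member, between the 96.3 and 97.5 percentiles. Its main probe set, 1420695_at, read 17382.5, 12897 and 19208 in replicates 1, 2 and 3, a mean of 16496 ± 3248 (SD, n = 3) and 15140 without replicate 3. It was lowest in replicate 2. Probe set 1433743_at read 3426, 4265 and 3559, with a log2 SD of 0.06, and was highest in replicate 2. The third, 1420694_a_at, exceeded background only in replicate 2, at 118, 473 and 102.

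Dach2, an X-linked relative of Dach1, was detected with both of its probe sets, the one gene of several probe sets for which all were. Probe set 1458012_at read 1270.2, 1369 and 1543 in replicates 1, 2 and 3, a mean of 1394 ± 138 (SD, n = 3) and 1319 without replicate 3. Probe set 1449823_at read 698, 866.5 and 1247. Both were highest in replicate 3, the library of doubtful sex label, by 0.25 and 0.71 on the log2 scale against the mean of the others. Over 377 X-linked genes, with Dach2 and without Xist, the median of this difference was 0.11, with quartiles of -0.21 and 0.38. Over 10605 autosomal genes it was -0.01. The main Dach2 probe set lay inside the X-linked quartiles and the other above them.

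Probe sets of 1 gene were compared over the same samples, where a change of the transcript as a whole would move them alike. The alignment of samples cancels in the log2 ratio of a pair, but not in the order of samples within each probe set. Of the 6 member genes with several probe sets, 5 had a mixture of detected and undetected ones, against 48.3% of all genes with several. Those 5 had 3 or 4 probe sets each, and the share over all genes was not matched for the number of probe sets. Among the 14 detected probe sets there were 7 pairs within a gene. In 3 of the 7 the log2 ratio of the pair spanned more than 1 across the samples, against 45.3% of 12294 such pairs over all genes. The widest was the Eya4 pair, whose log2 ratio was 1.85 in replicate 1, -0.14 in replicate 2 and 1.11 in replicate 3, a span of 1.99. The Six4 pairs with the main probe set spanned 1.14 and 1.52, and the Dach1 pair 0.84. After alignment, in 4 of the 7 pairs the probe sets ordered at least 2 of the 3 pairs of samples oppositely, against 40.5% over all genes. With signals as deposited the Eya3 pair joined these 4, and the share over all genes was not computed for that setting. The median span was 0.84 for the members and 0.90 over all genes. With only 7 pairs, and the Six4 pairs sharing probe sets, nothing is read from the counts of pairs.

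**Figure D2:**
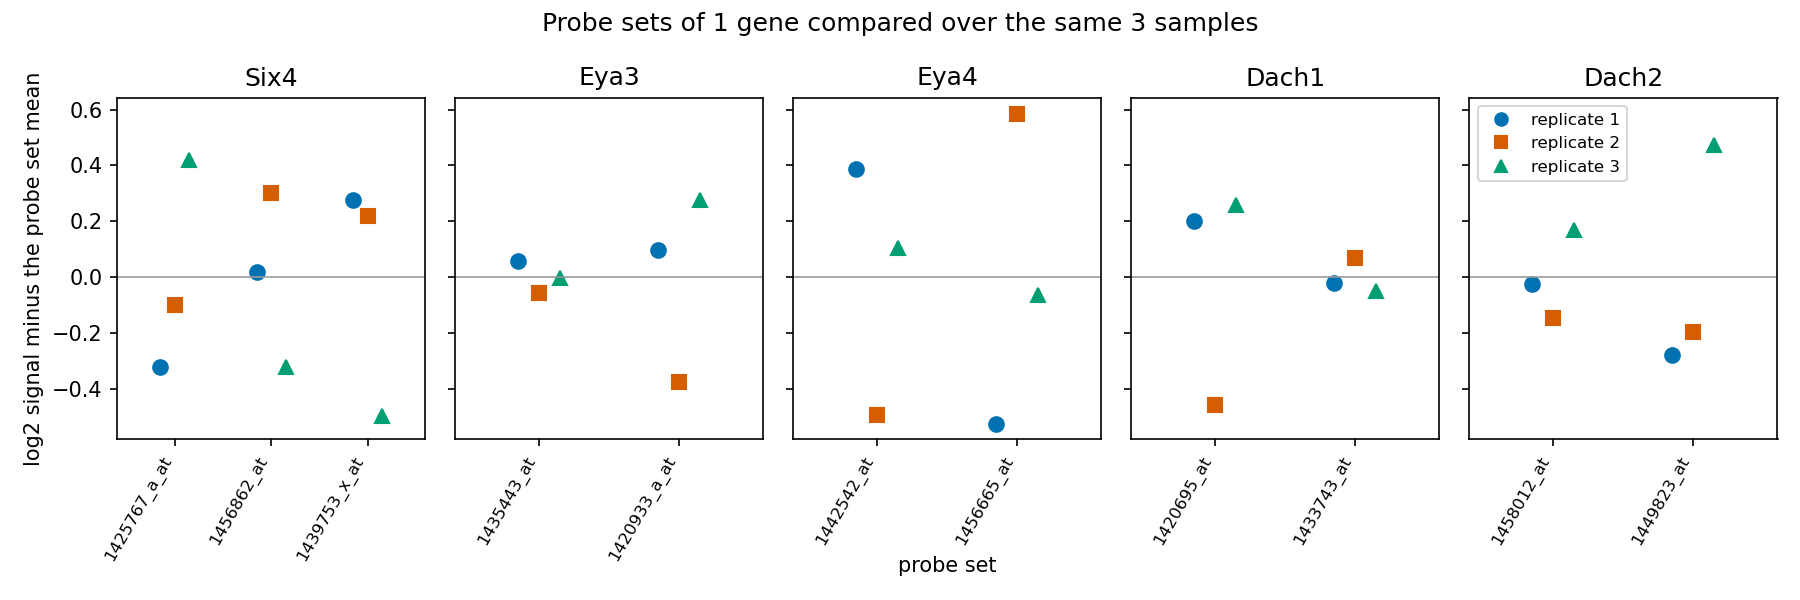
Log2 signal minus the probe set's own mean, after alignment of the samples, for the detected probe sets of Six4, Eya3, Eya4, Dach1 and Dach2. Each point is 1 sample. The points of replicate 2 are at the bottom for Eya4 1442542_at and at the top for 1456665_at, and those of replicate 3 are at the top for Six4 1425767_a_at and at the bottom for the other Six4 probe sets.

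Of the 9 undetected member probe sets 8 were highest in replicate 2 and 1 in replicate 3, while 5 were lowest in replicate 1 and 4 in replicate 3. Of these 9, 3 exceeded background in no sample. Over all undetected probe sets 41.2% were highest in replicate 2. Replicate 2 also had the highest median signal over all probe sets, at 334 against 205 and 272 in replicates 1 and 3, and the highest background. Among the 14 brighter member probe sets 3 were highest in replicate 2, against 29.0% of all detected probe sets. The part of the background in the dim values was not tested.

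Across samples, the main probe sets of the 8 detected genes had log2 SDs from 0.06 to 0.45 with a median of 0.31. Over all detected probe sets the median SD was 0.36, and it was 0.32 in the brightest tertile, 0.38 in the middle one and 0.41 in the dimmest. Of the 14 member probe sets, 7 had an SD below the median of all, against 50.0% by construction. Of the 14, which were all detected in every sample, only Eya4 1456665_at differed over 2-fold between samples, by 2.16-fold between replicates 1 and 2. Among all detected probe sets 20.2% differed over 2-fold in that pair. The share was 13.8% for replicates 1 and 3 and 9.84% for replicates 2 and 3, where 0 of the 14 members did so. Requiring detection left out member probe sets that were below background in replicate 1. Replicate 2 exceeded replicate 1 by at least 5.84-fold for Eya1 1443117_at and 2.95-fold for Eya1 1421727_at. The bound was 2.97-fold for Dach1 1420694_a_at and 2.34-fold for Eya4 1456647_a_at. The share of such bounds over all probe sets was not computed.

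Replicate 3 is the sample whose landmark label, visible fingers, differs from the indented footplate borders of replicates 1 and 2. It is also the library of doubtful sex label, so landmark and sex cannot be told apart in its differences. Each sample was set against the mean of the others with limma, a linear model that pools variance across probe sets, over the 29051 probe sets that exceeded background somewhere among the samples. These fits leave 1 residual degree of freedom and take the spread of the lone sample to equal that of the pair it is set against. The fit of replicate 3 did not call even Xist or Eif2s3y, whose signals are given above. The fits could thus miss large differences, and the absence of a call is not read as evenness. In each of the 3 fits limma called 0.0% of all probe sets and 0 of the 20 member probe sets fitted at a Benjamini-Hochberg adjusted p under 0.05. At an unadjusted p under 0.05 there were 3 member probe sets in the fit of replicate 1 (Eya1 1443117_at and 1421727_at and Eya4 1456647_a_at), all below background in replicate 1. There was 1 in the fit of replicate 2 (Dach1 1420694_a_at), above background in that sample only, and 0 in the fit of replicate 3. Over all probe sets the shares were 11.4%, 5.03% and 2.08%. Those 4 member probe sets were fitted only because of the samples where they are high, so nothing is read from their count. The smallest adjusted p of a member was 0.14, for Eya4 1456647_a_at in replicate 1. For replicate 3 against replicates 1 and 2, Six4 1425767_a_at was higher by 0.63 ± 0.61 (log2 difference ± SE from limma) and Six5 lower at -0.45 ± 0.65, both with a limma adjusted p of 1.00.

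The main probe sets were above the mean of the other samples for 6 of 8 genes in replicate 1, 0 of 8 in replicate 2 and 5 of 8 in replicate 3. Over all named genes detected the shares were 72.3%, 31.8% and 49.1%. With signals as deposited, without alignment, 4 of 8 were higher in replicate 1 and 2 of 8 in replicate 2, so these directions rest in part on the scaling. The shares over all genes were not computed without alignment. The median log2 difference of the 8 genes was 0.22 in replicate 1, -0.23 in replicate 2 and 0.13 in replicate 3, and over all genes it was 0.26, -0.21 and -0.01. The sample with the largest summed skeletal muscle and liver signal was replicate 1. There the main probe set of Six4 had a log2 difference of -0.48 from the others, that of Six5 0.68 and that of Eya4 0.58. With alignment on all probe sets the Six4 value was -0.08. The other detected probe sets of Six4 and Eya4 had differences of the opposite sign in replicate 1, at 0.03 and 0.42 for Six4 1456862_at and 1439753_x_at and -0.78 for Eya4 1456665_at. The part of those tissues in the members' values was not tested.

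**Figure D3:**
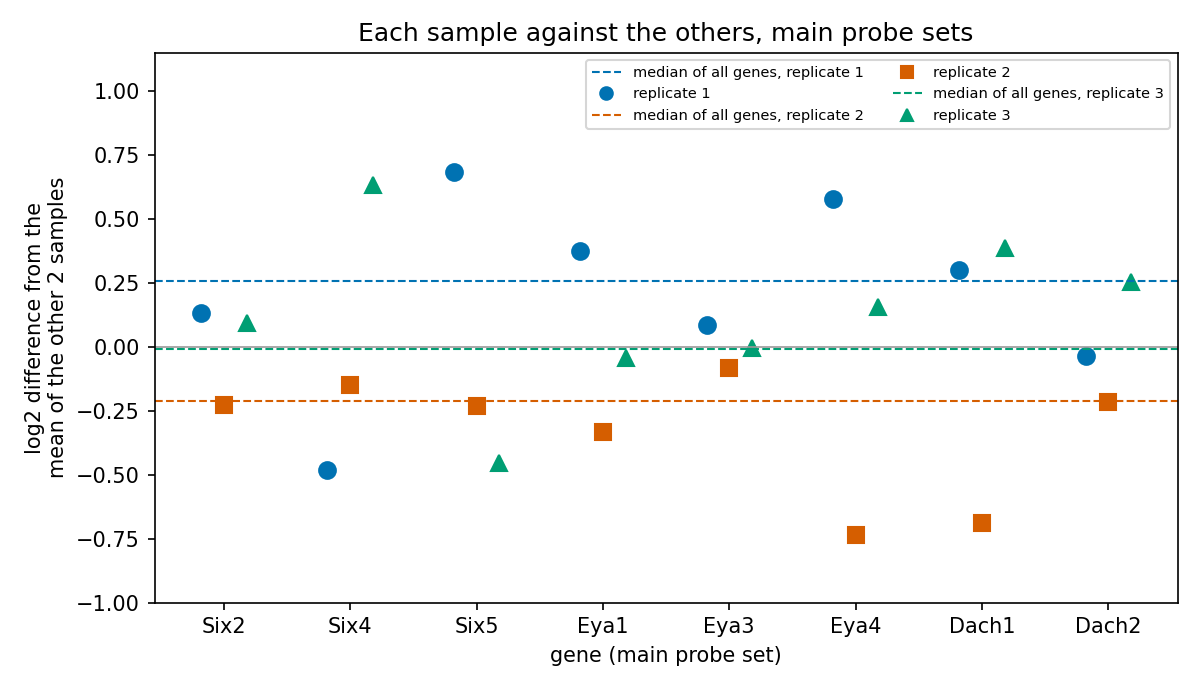
Log2 difference between a sample and the average of the other two, after alignment, for the main probe sets of the 8 detected genes. Dashed lines are the medians over 11003 genes, at 0.26, -0.21 and -0.01 for replicates 1, 2 and 3. All 8 points of replicate 2 lie below 0, and with unaligned signals 6 do.

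Patterns over 3 samples are shared by many genes. The genes most like Eya4, the member with the largest SD, by the distance between log2 deviations from the gene's mean over the 3 samples, were Gtf2h5 (distance 0.0031), Fbxo25 (0.0053) and Pcbd2 (0.0056). Of 11002 genes ranked, 261 lay within a distance of 0.1, so 3 samples do not single any of them out.

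Partners of the network were described from lists. Pax factors, which act upstream of or together with the network, were mostly below background, with 1 of 6 measured genes detected against 60.5% of all named genes. That gene was Pax3, a factor of muscle and neural crest precursors, at 545, 350.2 and 1430.3 in replicates 1, 2 and 3, highest in replicate 3. Pax1, Pax8 and Pax9 exceeded background in no sample, Pax7 only in replicate 2 and Pax6 only in replicate 3. Pax2 was not analysed here.

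All 11 cofactor genes measured were detected, against 60.5% of all named genes. The Groucho-type corepressor Tle4 read 25469, 27910 and 31845 in replicates 1, 2 and 3, and the coactivator Crebbp 16240, 21965 and 20886. Ski, a relative of the Dach proteins, read 6524, 8262 and 6520.0, and its paralogue Skil 14422, 14044 and 9977. The log2 SDs were 0.17 for Tle4, 0.14 for Crebbp, 0.10 for Ski and 0.31 for Skil. Sobp, a cofactor that binds Six-family proteins, spread more, at 148, 914 and 270.1, near background in replicate 1 and highest in replicate 2.

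Of 15 measured genes reported as targets of the network or substrates of Eya phosphatase, 11 were detected, where the share over all named genes was 60.5%. Among those that drive growth, Ccnd1, a cyclin of the G1 phase, read 9853, 11551 and 11439, and Myc 2145, 1804 and 1269. The ion transporter Slc12a2 read 24260, 26855 and 31481, and Sall1, a zinc finger factor of kidney and limb, 9936, 12451 and 8632. H2ax, the histone dephosphorylated by Eya proteins, read 9455, 13581 and 7245. The neurotrophic ligand Gdnf exceeded background only in replicate 1 (859, 145 and 175), whereas its receptor Ret was detected (824, 595 and 772).

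The muscle targets were uneven. Myog, the factor of muscle differentiation, read 858, 296 and 231 in replicates 1, 2 and 3 and was detected. Myod1 read 459, 245.5 and 362 and passed in all but replicate 2. Myf5 and Myf6 were above it in no sample. Myog was highest in replicate 1, the sample with the largest summed skeletal muscle signal. The main Eya1 probe set was higher there by 0.38 on the log2 scale than the mean of the others, where the median over all detected genes was 0.26. The other Eya1 probe sets, 1443117_at and 1421727_at, were lowest in replicate 1 and below background there. For Six4 the main probe set was lowest in replicate 1 and 1439753_x_at was highest there after alignment.

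**Figure D4:**
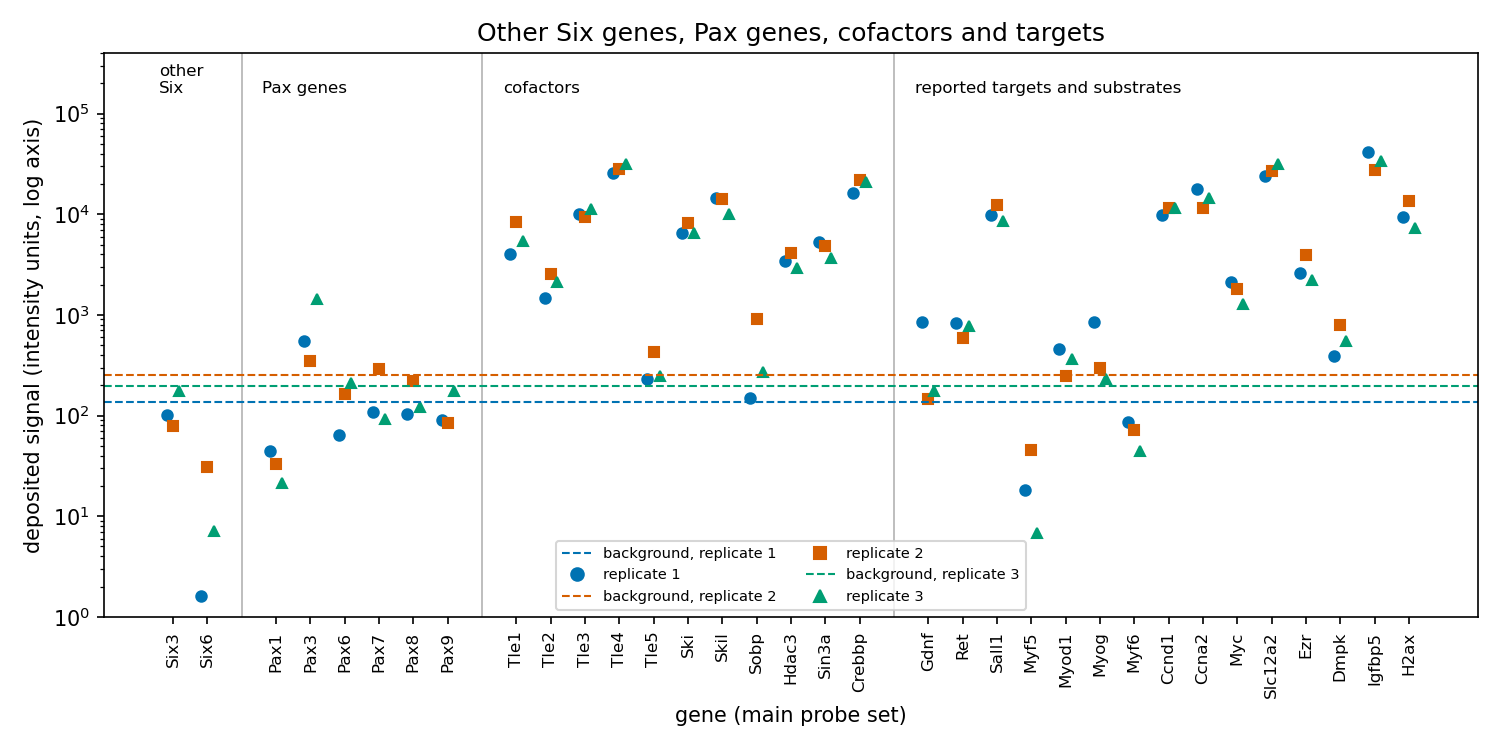
Deposited signal (intensity units, log axis) of the main probe sets of the other Six genes, Pax genes, cofactors and reported targets, with 1 point per sample and dashed lines at each sample's background. The 11 cofactors lie above background in every sample, while Six3 and Six6 lie below it in all 3 and Pax3 is the only Pax gene above it in all 3.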

How the data were processed

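RNA of 3 samples of 1 group was measured on Affymetrix arrays. The deposited values are linear intensity, 1 per probe set and sample, made by the authors with the Affymetrix software GCOS according to the submitters' processing notes. Version and algorithm: not given in the sources used here. With 2% of values trimmed at either end, each sample averaged 1500.0, so the authors' values carry a global scaling. No scanner files were used. Of 45101 probe sets 64 were controls; a GEO platform annotation gave 1 symbol to 34945, several to 932 and none to 9160. No genome build is named for the array, and coordinates are those of RefSeq promoters.

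Signals under 1 were set to 1, log2 transformed and aligned on the medians of detected probe sets (above background in 3 of 3 samples), which differed by 0.23. Levels are printed as deposited; log2 differences and folds are aligned. Where 1 sample was below background a fold is a lower bound against that background. Tests used limma 3.58.1 in R 4.3.3 (lmFit, eBayes, Benjamini-Hochberg), checked on simulated data. Python 3.11.15, pandas 2.3.3 and numpy 2.4.6 did the rest. Named genes were every member probe set, the genes of fixed lists (other Six genes, Pax genes, cofactors, targets, tubercle and tissue markers) and the 3 genes most like the member with the largest SD; Xist, Eif2s3y and the neighbour comparison were added with their values known. The members and lists were chosen with earlier results of these data known. p-values measure only the spread between these 3 samples, and the number of arrays limits the precision. At most 10 probe sets held equal values in any pair of samples, so each counted as its own sample. Alternatives covered the background percentile, alignment, floor, filter, variance trend, choice of probe set and leaving out each sample.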

Additional observations from a re-analysis of the deposited data

How the results depend on the processing

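The count of 8 genes above background held with background at the 90th or 99th percentile and without any 1 sample (lowest and highest 8), and was 3 with the probe set of lowest mean signal standing for each gene. The count of probe sets was 14 at the 99th percentile, 15 at the 90th, and 14 to 17 without 1 sample. The median SD of the main probe sets, 0.31, became 0.22 without alignment, 0.42 with alignment on all probe sets, 0.18 over the mean of a gene's probe sets, and 0.17 to 0.25 without 1 sample. With 3 arrays limma called 0 probe sets in each fit, while probe sets at an unadjusted p under 0.05 numbered 3305, 1462 and 605 for replicates 1, 2 and 3. For replicate 1 the count was 494 among detected probe sets, where fewer were tested, 546 with a variance trend and 141 with alignment on all probe sets. That alignment gave 251 for replicate 2 and 86 for replicate 3, and the filter on detection gave 1 for replicate 3. In none of these was a member called; the smallest member adjusted p from limma was 0.067, for replicate 1 with alignment on all probe sets. The cause of these changes was not tested. Genes higher in replicate 2 numbered 2 in place of 0 without alignment, an alternative chosen after seeing the data. Of 48 log2 differences recomputed under another alignment, 16 moved by at least the gene's own log2 SD over the 3 samples. A change of sign occurred in 5, in Six2, Six4, Eya3 and Dach2. The dim probe sets highest in replicate 2 were 6 of 9 with alignment on all probe sets and 8 with a floor of 16, both chosen after seeing the data. For counts of members above background or higher in a given sample, shares over all genes or probe sets were computed under the main settings only. The counts under other settings therefore have no background beside them. No paired analysis was possible because the samples form 1 group.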
